A study of Mus musculus with 12 samples.

Results

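The genes described here are 10 markers of vascular endothelial cells: Cdh5, Pecam1, Esam, Kdr, Flt1, Tek, Tie1, Eng, Emcn and Vwf. They were chosen by symbol. A transcript cluster, the array's unit for one gene, was taken where the platform annotation paired it with exactly 1 of these symbols. Each gene had 1 such cluster, so 10 clusters were described out of the 30412 that carry exactly 1 symbol.

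RNA of whole quadriceps muscle was measured in 12 male mice on the C57BL/10 background, all 6 weeks old and all utrn+/-;mdx. The mdx mutation removes the muscle protein dystrophin, and utrn+/- is loss of 1 copy of the gene for its relative utrophin, so every group, the untreated one included, was dystrophic. The 4 groups held 3 mice each, with 1 Affymetrix array per mouse. Untreated mice had normal chow. One group had spironolactone at 100 mg/kg per day plus lisinopril at 20 mg/kg per day in medicated pellets. A further group had eplerenone at 200 mg/kg per day plus lisinopril at 20 mg/kg per day, also in pellets. The last group had prednisolone at 1.5 mg/kg per day in the water bottle. All drugs were given from 4 to 6 weeks of age. Spironolactone and eplerenone block the mineralocorticoid receptor, lisinopril inhibits angiotensin-converting enzyme, and prednisolone is a glucocorticoid. The groups used here include no healthy mice and no drug-free pellets.

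Endothelial cells line every blood vessel, and in skeletal muscle most of them belong to the capillaries that run along the fibres. They hold to each other through junction proteins, take growth and survival signals from vascular endothelial growth factor (VEGF) and the angiopoietins through receptor tyrosine kinases, and receive bone morphogenetic protein (BMP) signals from the blood. The 10 genes cover these roles: Cdh5 (VE-cadherin), Pecam1 and Esam encode junction proteins, Kdr and Flt1 encode the VEGF receptors VEGFR2 and VEGFR1, and Tek and Tie1 encode the receptors of the angiopoietin system. Eng encodes endoglin, a co-receptor for BMP ligands; Emcn encodes endomucin, a surface sialomucin of capillaries and veins; and Vwf encodes von Willebrand factor, a clotting protein stored in endothelial cells and also made by megakaryocytes. The arrays read RNA of the whole muscle, so fewer endothelial cells and less of an RNA per endothelial cell cannot be told apart.

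Values are the deposited log2 signals, on which a difference of 1 is a doubling. Signals of different genes come from different probes and are not compared as levels. The deposited signals of the 10 genes ran from means of 6.93 (Vwf) to 13.85 (Cdh5) over the 12 arrays. Differences between groups were tested with limma over all 30412 clusters, with Benjamini-Hochberg adjustment and a threshold of 0.05. In the text, rose and fell are used only for changes past that threshold.

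The 3 untreated arrays stood apart from each other for these genes. Untreated replicate 2 was the lowest of its group in 10 of 10 genes, with a mean deviation of -0.31 from each gene's mean over the 12 arrays. Untreated replicate 3 was the highest of its group in 9 of 10 genes and deviated by 0.65 on average, and untreated replicate 1 by 0.37. The mean deviation was -0.12 to 0.17 in the spironolactone plus lisinopril arrays and -0.18 to 0.39 in the eplerenone plus lisinopril arrays. In the prednisolone arrays it was -0.46 to -0.32. The median SD of the 10 genes within a group was 0.56 in untreated, 0.27 and 0.30 in the combinations, and 0.10 in prednisolone. Over all tested clusters these medians were 0.149, 0.135, 0.136 and 0.123, so the spread among untreated mice was several times the usual one for this set.

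Markers of other cells also differed among the untreated arrays. The mean level of 10 macrophage and monocyte markers was 13.85 in untreated replicate 2 against 13.14 and 13.31 in the other 2, and 12.37 to 13.30 in the 9 treated arrays. The mean of 8 neutrophil markers was 8.82 and 8.77 in untreated replicates 2 and 3, and 6.52 in replicate 1. The 9 treated arrays lay at 5.92 to 6.90. Skeletal muscle markers varied little, from a mean of 19.02 in untreated replicate 2 to 19.26, near the highest value of the table, 19.93. Medians over all tested clusters ran from 5.70 to 5.81 across the arrays. The part of these differences in the endothelial values was not tested. For prednisolone against untreated, counts and values of the 10 genes are given with and without untreated replicate 2. For the combinations against untreated, counts, and values of Cdh5 and Pecam1, are given without untreated replicate 2. Where that mouse alone is set as the reference, the value is given without a test, because an arm of 1 array has no spread of its own and the mouse was singled out after its values were seen.

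**Figure D1:**
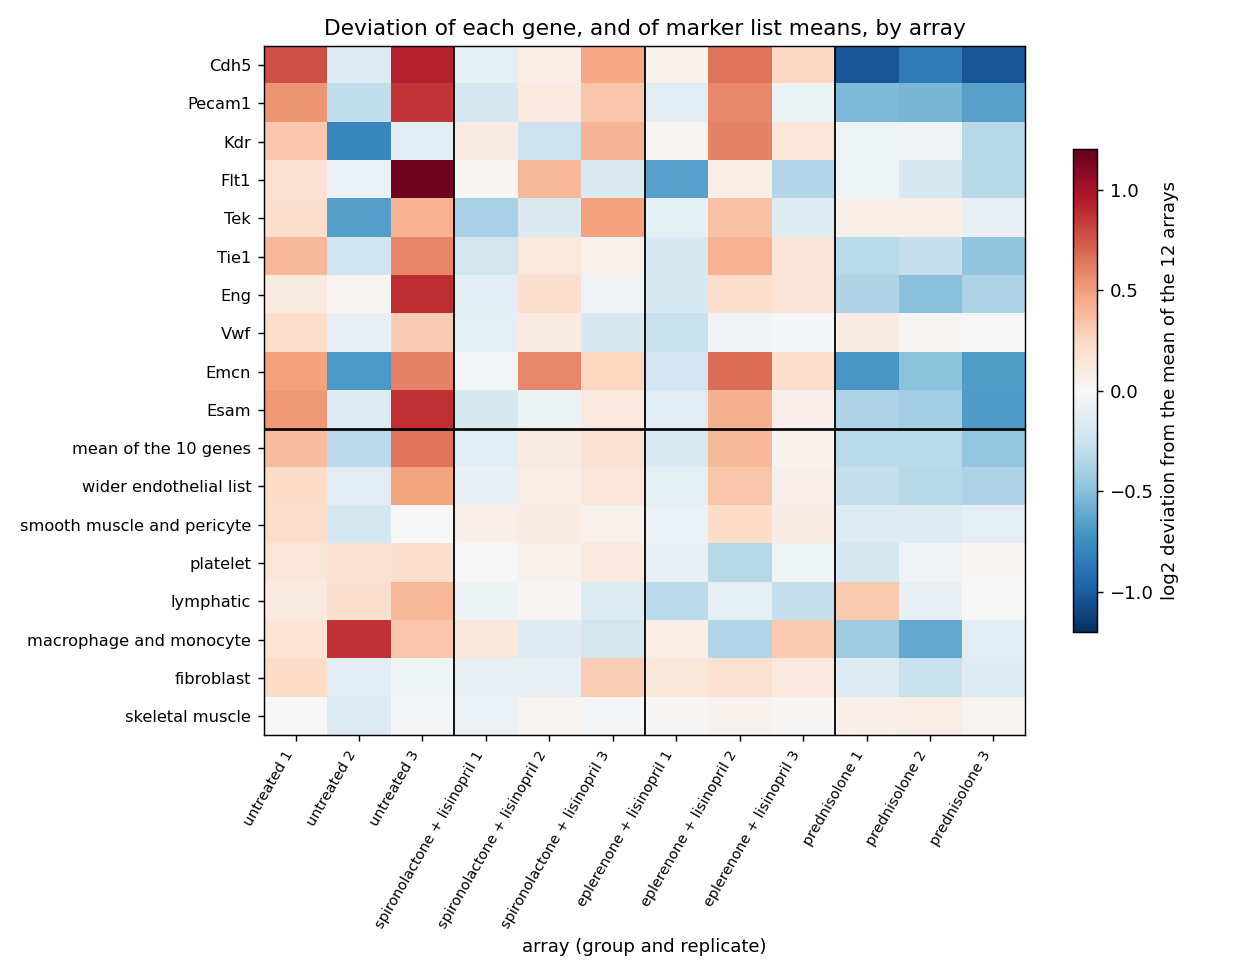
Log2 deviation of each of the 10 genes (upper rows), and of mean levels of marker lists (lower rows), from its mean over the 12 arrays; columns are arrays by group and replicate, red above and blue below. The 3 prednisolone arrays and untreated replicate 2 are low in most endothelial rows, and untreated replicate 2 is high in the macrophage row.

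Cdh5 encodes VE-cadherin, the adhesion protein of endothelial adherens junctions, and had the lowest signal in prednisolone-treated muscle. It measured 14.63, 13.69 and 14.78 in untreated mice, and 12.82, 13.00 and 12.82 under prednisolone. It measured 13.74, 13.93 and 14.32 under spironolactone plus lisinopril, and 13.89, 14.50 and 14.10 under eplerenone plus lisinopril. All 3 prednisolone arrays lay below the other 9, while the other groups overlapped. The mean was 14.37 ± 0.59 (SD, n = 3) in untreated and 12.88 ± 0.10 (SD, n = 3) in prednisolone. Cdh5 fell by 1.48 ± 0.26 (SE) against untreated (limma adjusted p = 0.0106), a signal 2.80-fold higher in untreated, with a 95% interval of the log2 difference from -2.06 to -0.90. Against untreated replicates 1 and 3 alone the difference was -1.82 (limma adjusted p = 0.0034), and against untreated replicate 2 alone it was -0.81.

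Esam encodes an immunoglobulin-type adhesion molecule of endothelial tight junctions and also fell under prednisolone. It measured 8.22, 7.54 and 8.58 in untreated mice and 7.32, 7.29 and 7.02 under prednisolone. The groups did not overlap, and untreated replicate 2 lay nearest to the treated arrays. The log2 difference was -0.91 ± 0.23 (SE), a signal 1.87-fold higher in untreated (limma adjusted p = 0.0423). The difference was -1.19 without untreated replicate 2 (limma adjusted p = 0.0114) and -0.33 against that replicate alone. The call did not hold without untreated replicate 1 (-0.85, limma adjusted p = 0.082) or without untreated replicate 3 (-0.67, limma adjusted p = 0.13). It was also lost without any single prednisolone replicate. Esam measured 7.51, 7.64 and 7.82 under spironolactone plus lisinopril and 7.57, 8.12 and 7.76 under eplerenone plus lisinopril, overlapping the untreated values.

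Pecam1 encodes CD31, an adhesion molecule at contacts between endothelial cells that leukocytes and platelets also carry. It measured 11.08, 10.26 and 11.41 in untreated mice and 10.02, 10.00 and 9.90 under prednisolone. The prednisolone values lay below those of the other 9 arrays, but the difference from untreated, -0.94 ± 0.27 (SE), did not pass the threshold (limma adjusted p = 0.0662). Without untreated replicate 2 it was -1.27 and passed (limma adjusted p = 0.0168). Without untreated replicate 3 it was -0.70 and did not pass (limma adjusted p = 0.20). Leaving out any other single array of these groups gave no pass. Under spironolactone plus lisinopril Pecam1 measured 10.34, 10.67 and 10.87, and under eplerenone plus lisinopril 10.43, 11.13 and 10.49. For all 3 junction genes the order of the group means was prednisolone, spironolactone plus lisinopril, eplerenone plus lisinopril, untreated, from low to high. In that order the 3 upper groups overlapped for each gene.

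**Figure D2:**
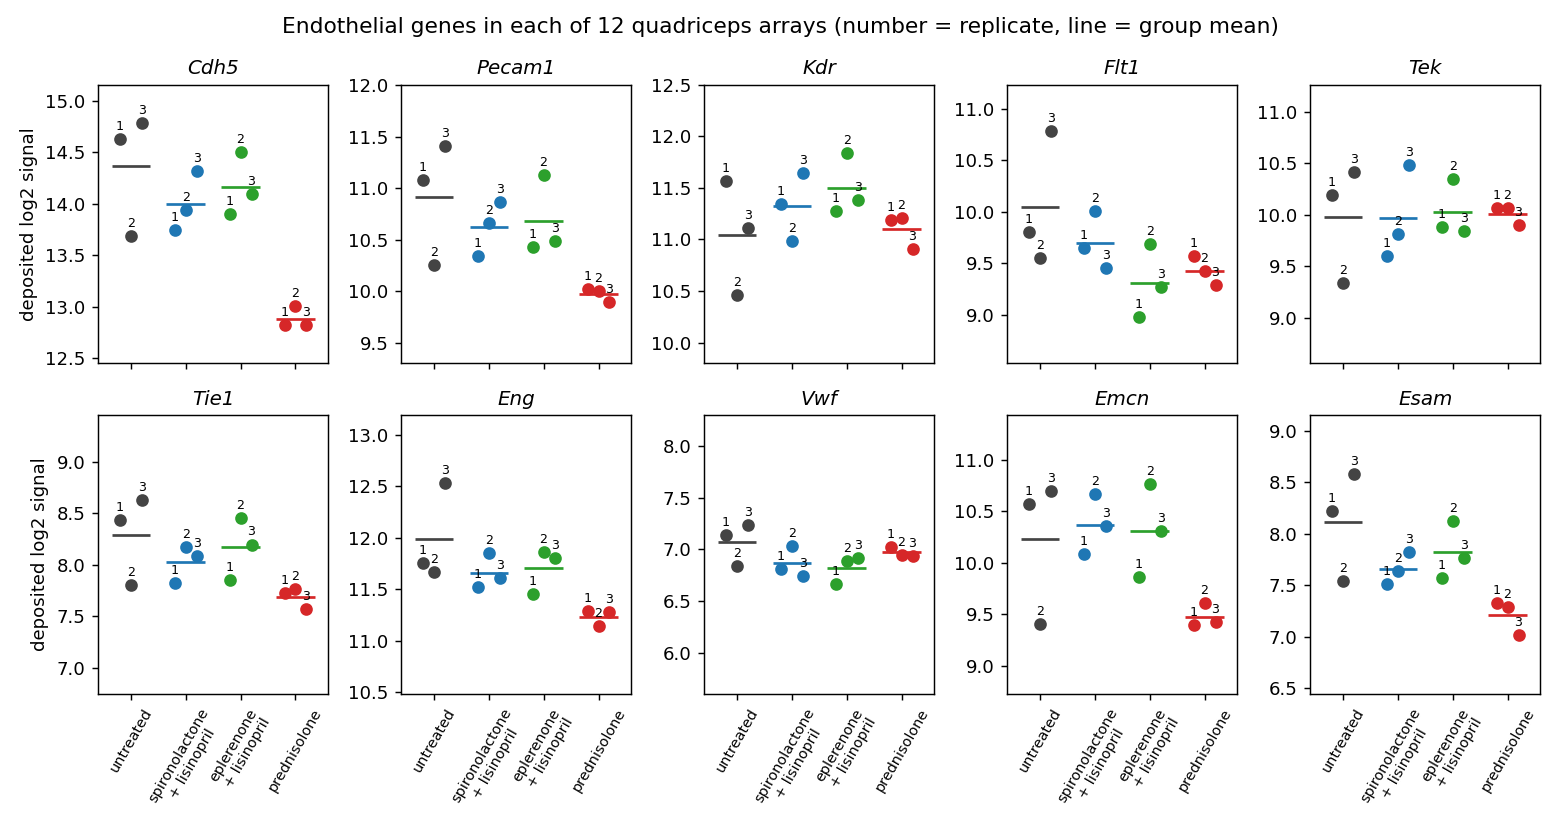
Deposited log2 signal of each of the 10 genes in each array, by group; each point is 1 mouse, labelled with its replicate number, and lines are group means. Prednisolone points of Cdh5, Pecam1, Esam, Tie1 and Eng lie below all untreated points, those of Kdr, Tek and Vwf lie among them, and untreated replicate 2 is the lowest untreated point in every panel.

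The receptor genes did not move as a block. For 6 of the 10 genes the RefSeq promoter table (GRCm38.p6) held a window, and the 250 bases upstream of the start site are shown for Tie1 and Eng, which were low in prednisolone, and for Kdr and Tek, which were not. Capitals mark CAGGAA or CCGGAA on either strand (on the opposite strand they read TTCCTG or TTCCGG), the core letters of ETS-type sites, the family of the endothelial factors Erg and Fli1. Each is printed 5′ to 3′ on the gene's strand. The windows are chr4:118489850-118490099 (minus strand) for Tie1, chr2:32646345-32646594 (plus) for Eng, chr5:75978456-75978705 (minus) for Kdr and chr4:94739039-94739288 (plus) for Tek.
Tie1: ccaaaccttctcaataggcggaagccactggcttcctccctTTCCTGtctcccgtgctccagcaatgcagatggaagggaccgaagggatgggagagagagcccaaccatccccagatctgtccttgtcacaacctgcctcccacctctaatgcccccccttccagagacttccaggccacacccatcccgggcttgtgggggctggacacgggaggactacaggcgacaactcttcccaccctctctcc
Eng: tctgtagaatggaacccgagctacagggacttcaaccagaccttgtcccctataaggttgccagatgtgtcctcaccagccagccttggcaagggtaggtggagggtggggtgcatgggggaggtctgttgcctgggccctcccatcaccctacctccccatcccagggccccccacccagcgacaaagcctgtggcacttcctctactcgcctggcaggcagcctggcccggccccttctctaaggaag
Kdr: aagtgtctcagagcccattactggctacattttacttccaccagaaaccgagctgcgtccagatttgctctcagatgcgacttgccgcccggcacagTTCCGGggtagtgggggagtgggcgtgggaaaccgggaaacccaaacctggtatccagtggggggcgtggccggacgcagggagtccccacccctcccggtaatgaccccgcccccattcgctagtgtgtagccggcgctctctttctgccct
Tek: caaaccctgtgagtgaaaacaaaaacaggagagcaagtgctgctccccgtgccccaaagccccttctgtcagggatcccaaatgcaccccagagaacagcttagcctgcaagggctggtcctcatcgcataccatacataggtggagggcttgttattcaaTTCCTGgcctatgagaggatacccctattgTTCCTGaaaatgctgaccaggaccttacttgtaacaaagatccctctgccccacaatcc

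The Tie1 window held 1 CAGGAA, the Tek window 2 and the Kdr window 1 CCGGAA, none of them overlapping, and the Eng window held neither word. Unmarked GGAA letters do occur in the Eng window. Of all 6 windows, 4 held at least 1 of the words (Emcn also, and Flt1 not), against 35.1% of 32851 promoter windows of the same length. CAGGAA alone was in 25.7% and CCGGAA alone in 12.0% of them. The words were present in promoters of genes with and without a lower signal under prednisolone, and a match is a description of letters only.

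Tie1 encodes the orphan receptor that pairs with the angiopoietin receptor. It measured 8.44, 7.81 and 8.63 in untreated mice and 7.72, 7.76 and 7.57 under prednisolone. The groups did not overlap, though untreated replicate 2 exceeded the highest prednisolone array by little. The difference of -0.60 ± 0.21 (SE) did not pass (limma adjusted p = 0.113), and without untreated replicate 2 it was -0.85 and did (limma adjusted p = 0.0305). It was -0.43 without untreated replicate 3 (limma adjusted p = 0.31), and it did not pass without any other single array of these groups. Tie1 measured 7.83, 8.17 and 8.09 under spironolactone plus lisinopril and 7.85, 8.46 and 8.20 under eplerenone plus lisinopril. These values lay within the untreated range.

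Tek encodes TIE2, the receptor of the angiopoietins, and its group means were nearly level. They were 9.98 ± 0.57 in untreated, 9.97 ± 0.46 and 10.02 ± 0.28 in the spironolactone and eplerenone combinations, and 10.01 ± 0.10 in prednisolone (SD, n = 3 each). The values were 10.19, 9.34 and 10.41 in untreated mice and 10.06, 10.07 and 9.90 under prednisolone, which lie within the untreated range. The difference was 0.03 ± 0.28 (SE), with a 95% interval of -0.59 to 0.65 (limma adjusted p = 0.971). The sign turned with the untreated arrays used: -0.29 without replicate 2 and 0.67 against replicate 2 alone. Tek measured 9.60, 9.82 and 10.48 under spironolactone plus lisinopril and 9.88, 10.35 and 9.84 under eplerenone plus lisinopril.

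Kdr encodes VEGFR2, the main signalling receptor of VEGF-A. It measured 11.56, 10.46 and 11.11 in untreated mice and 11.19, 11.21 and 10.91 under prednisolone, again within the untreated range. The difference was 0.06 ± 0.26 (SE), with a 95% interval of -0.52 to 0.64 (limma adjusted p = 0.938). It was -0.24 without untreated replicate 2 (limma adjusted p = 0.66) and 0.64 against that replicate alone. Kdr was the only one of the 10 whose mean was lowest in untreated, at 11.04, and it was highest under eplerenone plus lisinopril (11.28, 11.84 and 11.39). Under spironolactone plus lisinopril it measured 11.34, 10.98 and 11.65, and from low to high the order was untreated, prednisolone, spironolactone combination, eplerenone combination. Each neighbouring pair of groups in that order overlapped.

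Flt1 encodes VEGFR1, which binds VEGF-A tightly and whose soluble form acts as a decoy. It measured 9.80, 9.55 and 10.79 in untreated mice, so replicate 3 was about 1 log2 unit above the others. It measured 9.57, 9.43 and 9.28 under prednisolone, 9.65, 10.00 and 9.45 under spironolactone plus lisinopril, and 8.97, 9.69 and 9.27 under eplerenone plus lisinopril. Each treated group overlapped untreated. Its lowest mean was in the eplerenone combination, not in prednisolone, with differences from untreated of -0.74 ± 0.29 (limma adjusted p = 0.315) and -0.62 ± 0.29 (limma adjusted p = 0.245). Without untreated replicate 3 the prednisolone difference was -0.25, and without untreated replicate 2 it was -0.87 (limma adjusted p = 0.148).

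Eng encodes endoglin, mutated in hereditary haemorrhagic telangiectasia. It measured 11.75, 11.67 and 12.53 in untreated mice and 11.28, 11.14 and 11.28 under prednisolone. The prednisolone arrays lay below all other arrays. The difference from untreated of -0.75 ± 0.20 (SE) did not pass (limma adjusted p = 0.0546), and it rested in part on untreated replicate 3, without which it was -0.48. Without untreated replicate 2 it was -0.91 and did not pass (limma adjusted p = 0.0507). Without untreated replicate 1 it was -0.86 and passed (limma adjusted p = 0.0427). It also passed with array weights (limma adjusted p = 0.0296) and with only clusters above the median level (limma adjusted p = 0.0366). Under spironolactone plus lisinopril Eng measured 11.52, 11.86 and 11.61, and under eplerenone plus lisinopril 11.45, 11.86 and 11.80.

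Emcn encodes endomucin and had the largest spread among untreated mice, with an SD of 0.71. It measured 10.57, 9.41 and 10.70 in untreated mice and 9.40, 9.61 and 9.43 under prednisolone. Untreated replicate 2 lay among the prednisolone arrays, and the other 2 lay more than 0.9 above them. The difference was -0.75 ± 0.32 (SE, limma adjusted p = 0.201), and -1.16 without untreated replicate 2 (limma adjusted p = 0.0326). It was -0.52 without untreated replicate 3 (limma adjusted p = 0.47), and it did not pass without any other single array of these groups. Emcn measured 10.08, 10.67 and 10.35 under spironolactone plus lisinopril and 9.86, 10.77 and 10.31 under eplerenone plus lisinopril, all above the prednisolone arrays.

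Vwf encodes von Willebrand factor and had the smallest spread among untreated mice, with an SD of 0.21. It measured 7.14, 6.84 and 7.24 in untreated mice and 7.03, 6.95 and 6.94 under prednisolone, a difference of -0.10 ± 0.12 (SE, limma adjusted p = 0.706). Without untreated replicate 2 the difference was -0.22 (limma adjusted p = 0.36). Vwf measured 6.81, 7.04 and 6.74 under spironolactone plus lisinopril and 6.67, 6.89 and 6.91 under eplerenone plus lisinopril. Prednisolone was the highest of the 3 treated groups for this gene, the reverse of its place for the junction genes. Vwf is shared with platelets, and the mean of 6 measured platelet markers was 6.54 to 6.59 in untreated, 6.19 to 6.41 in prednisolone, 6.39 to 6.51 in the spironolactone combination and 6.06 to 6.34 in the eplerenone combination. The part of platelet RNA in the Vwf values was not tested.

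Set side by side, prednisolone against untreated gave 2 falls (Cdh5 and Esam), no rise and 8 genes that did not pass, where 6.39% of all tested clusters passed in either direction and 3.17% were lower. At an unadjusted p under 0.05 there were 6 of the 10 genes, adding Pecam1, Tie1, Eng and Emcn, against 21.6% of all clusters. Of the 10 genes, 5 had every prednisolone array below every untreated array, against 13.3% of clusters. The median difference of the 10 genes was -0.68, and that of all tested clusters was -0.01. Without untreated replicate 2, the lowest untreated array in all 10 genes, 5 genes fell (Cdh5, Pecam1, Tie1, Emcn and Esam). Without untreated replicate 3, or without any 1 prednisolone replicate, only Cdh5 did. Without untreated replicate 1 the count was 2, with Cdh5 and Eng in place of Cdh5 and Esam. The list was not tested as a set.

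**Figure D3:**
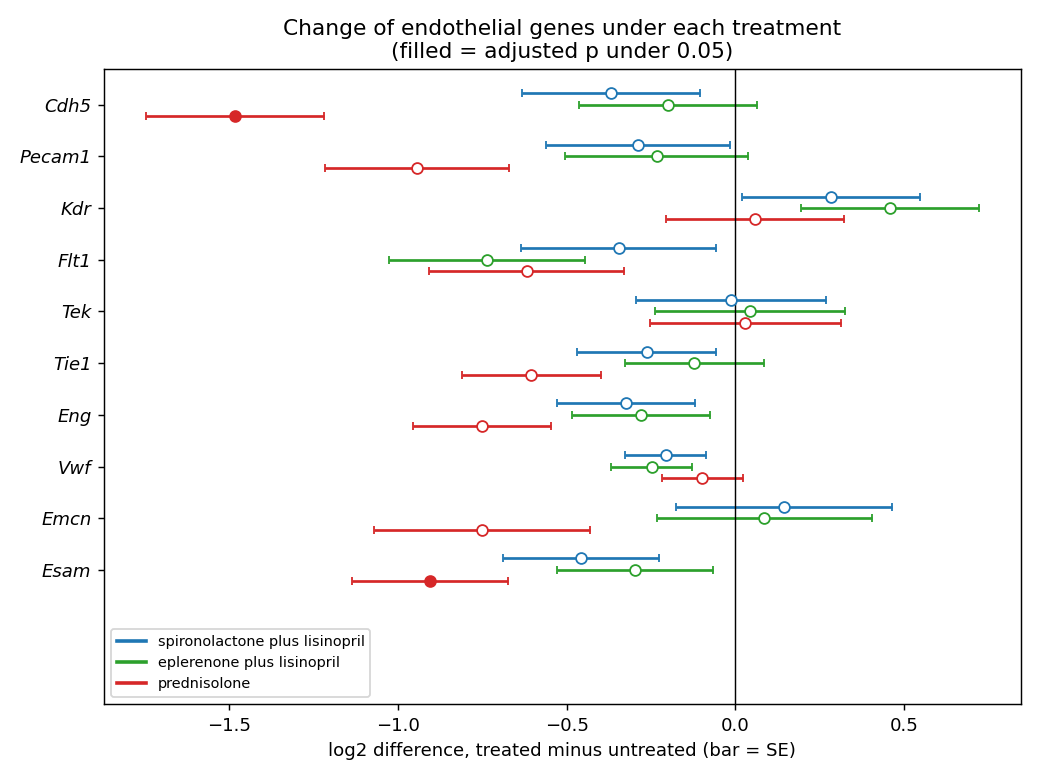
Log2 difference of each gene from untreated under spironolactone plus lisinopril (blue), eplerenone plus lisinopril (green) and prednisolone (red), with bars of 1 SE from the fit; filled points passed an adjusted p of 0.05. Cdh5 and Esam under prednisolone are filled, and Kdr and Tek lie near or above 0 under all 3 treatments.

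Neither combination moved any of the 10 genes past the threshold. With spironolactone plus lisinopril against untreated, 0 of 10 passed by limma, where 0.0822% of all clusters did. At an unadjusted p under 0.05 there were 0 of 10, against 16.2% of clusters. Differences ran from -0.46 ± 0.23 for Esam (limma adjusted p = 0.347, the smallest of the 10) to 0.28 ± 0.26 for Kdr, with a median of -0.28. No gene had groups that did not overlap, against 13.1% of clusters wholly lower in that combination. With eplerenone plus lisinopril against untreated, 0 of 10 passed by limma, where 0.0296% of all clusters did. Flt1 alone had an unadjusted p under 0.05, against 13.4% of clusters. The median was -0.22, the highest value was 0.46 ± 0.26 for Kdr (limma adjusted p = 0.476), and no gene's groups were apart, against 9.23% of clusters wholly lower. The SEs of 0.12 to 0.32 set what could be seen: the 95% interval for Cdh5 was -0.95 to 0.21 with spironolactone and -0.78 to 0.38 with eplerenone. Without untreated replicate 2, 0 of 10 passed by limma for either combination. Cdh5 then differed by -0.71 and Pecam1 by -0.62 for the spironolactone combination, and by -0.54 and -0.56 for the eplerenone one. With untreated replicate 2 alone as the reference, 7 of 10 signs turned for the spironolactone combination and 5 of 10 for the eplerenone one, and Cdh5 was 0.31 and 0.47 higher in the combinations.

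Spironolactone and eplerenone are related steroidal antagonists, given here at different doses, so the 2 combinations are set side by side as given and the drugs are not ranked. Of the 10 genes 0 passed by limma between them, as 0.0% of all clusters did, and 0 had an unadjusted p under 0.05, against 4.49% of clusters. Differences, spironolactone minus eplerenone combination, ran from -0.18 for Kdr to 0.39 ± 0.29 for Flt1, whose 95% interval was -0.25 to 1.03. The interval for Cdh5 was -0.75 to 0.41. With 3 arrays a group, the values do not exclude a difference anywhere inside these intervals.

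The differences of prednisolone from each combination do not use the untreated arrays. Their SEs and p do, because the fit shares 1 spread over all 4 groups. In a fit of the 2 groups alone Cdh5 passed against eplerenone plus lisinopril (limma adjusted p = 0.0331). It did not pass so against spironolactone plus lisinopril. Against spironolactone plus lisinopril, 0 of 10 genes passed by limma (0.822% of all clusters did) and 3 had an unadjusted p under 0.05 (16.3% of clusters): Cdh5, Pecam1 and Emcn. Cdh5 differed by -1.12 ± 0.26 (limma adjusted p = 0.0754). Of the 10 genes, 6 were wholly lower in prednisolone (10.2% of clusters), namely Cdh5, Pecam1, Tie1, Eng, Emcn and Esam, and the median was -0.38. Against eplerenone plus lisinopril, 0 of 10 passed by limma (0.608% of all clusters did) and 6 had an unadjusted p under 0.05 (12.5% of clusters). These were the same 6 genes that were wholly lower in prednisolone than in the spironolactone combination. Cdh5 differed by -1.28 ± 0.26 (limma adjusted p = 0.0581). With Kdr, 7 genes were wholly lower in prednisolone than in the eplerenone combination (9.96% of clusters), and Vwf was wholly higher by 0.15 (9.91% of clusters). Both comparisons share the prednisolone arrays. An F-test of any difference among the 4 groups called 1 of the 10 genes, Cdh5 (limma F-test adjusted p = 0.043), against 1.93% of all clusters.

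The genes' unequal change shows within single arrays. Kdr minus Cdh5, a difference chosen after its values were seen and given without a test, was -3.67 to -3.06 in untreated mice and -1.91 to -1.64 in prednisolone-treated mice. It was -2.95 to -2.40 in the spironolactone combination and -2.71 to -2.62 in the eplerenone combination. Tek minus Cdh5 was -4.38 ± 0.05 in untreated and -2.87 ± 0.10 in prednisolone (SD, n = 3), with -4.14 to -3.83 and -4.25 to -4.02 in the combinations. Untreated replicate 2, low in both genes, had a Tek minus Cdh5 difference of -4.35, beside -4.44 and -4.37 in the other untreated mice. Both genes were low in that mouse, while under prednisolone Cdh5 was low and Tek lay within the untreated range. These differences show only that the genes changed unequally.

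Pairs of the genes followed each other across arrays to different degrees. Over the 12 arrays, 43 of 45 pairs had a Pearson r above 0, from -0.09 (Kdr and Vwf) to 0.97 (Pecam1 and Esam), with a median of 0.59. After each array's value was taken as a deviation from its group mean, all 45 pairs were above 0, from 0.12 (Kdr and Eng) to 0.98 (Tie1 and Emcn), with a median of 0.78. Cdh5 and Tek had r = 0.42 over the arrays and 0.96 in deviations from group means. The deviations are largest in the untreated arrays, and all genes of an array share its RNA. Each gene's nearest partner over the 12 arrays was Pecam1 for Cdh5 (0.96), Esam for Pecam1 (0.97), Tie1 (0.96) and Eng (0.88), Eng for Flt1 (0.79), Flt1 for Vwf (0.78) and Tie1 for Emcn (0.91). Kdr and Tek were each other's nearest (0.69).

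**Figure D4:**
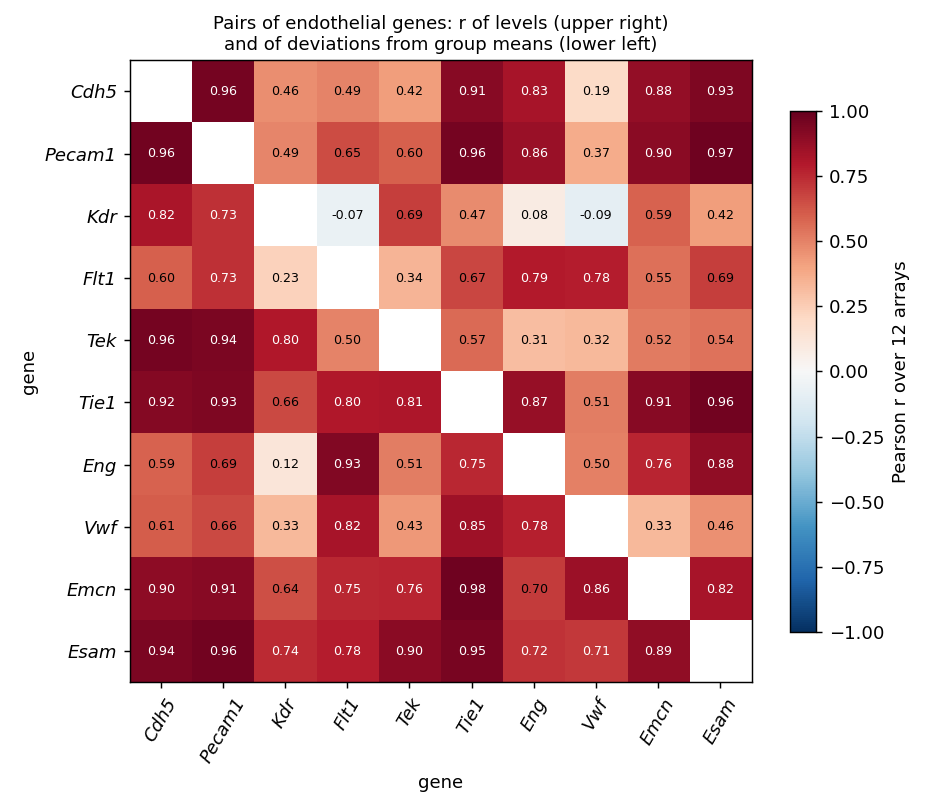
Pearson r for each pair of the 10 genes over the 12 arrays, of levels (upper right) and of deviations from group means (lower left), on a scale from blue (-1) to red (1). Kdr and Vwf have the palest cells in the upper right, while the pair Cdh5 and Tek goes from 0.42 above to 0.96 below.

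Among all other tested clusters, those most like the mean profile of the 10 genes were named by their Pearson r over the 12 arrays. They were Erg (0.957), an endothelial transcription factor; Ptprb (0.946), the phosphatase VE-PTP that binds VE-cadherin and TIE2; Lin7a (0.940), Plekhg1 (0.932), Dipk2b (0.931), Arhgap31 (0.930), Notch4 (0.923), an endothelial Notch receptor; and Trpm3 (0.922). Of these 8, Erg (-0.92, limma adjusted p = 0.032) and Arhgap31 (-0.66, limma adjusted p = 0.0232) fell under prednisolone against untreated. Of all clusters 3.17% did. The mean profile was itself lowest in the prednisolone arrays, so clusters picked for likeness to it tend to be low there. These falls describe the pick and are no separate result. The 10 genes themselves followed the mean of the other 9 with r from 0.43 (Kdr and Vwf) to 0.98 (Pecam1 and Tie1).

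A wider list of 33 measured endothelial genes held 11 that fell and none that rose under prednisolone against untreated, with 30 below 0 and a median of -0.55, where 6.39% of all clusters passed. Cd93, a C-type lectin-like endothelial receptor, measured 11.93, 12.03 and 12.05 in untreated mice and 10.76, 10.68 and 11.17 under prednisolone, and fell by 1.13 ± 0.18 (SE, limma adjusted p = 0.00739). Untreated replicate 2 was not low for this gene. S1pr1, the sphingosine-1-phosphate receptor that steadies endothelial junctions, fell by 1.36 ± 0.29 (SE, limma adjusted p = 0.0205). Aplnr, the apelin receptor, fell by 1.25 ± 0.26 (SE, limma adjusted p = 0.0208). The transcription factor Fli1 (-0.72), the guidance receptor Robo4 (-0.74) and the adhesion molecule Icam2 (-0.51) were among the other falls. For S1pr1, Aplnr, Fli1, Robo4 and Icam2, unlike Cd93, untreated replicate 2 was the lowest untreated array. In the combinations against untreated 0 of 33 passed by limma, with medians of -0.15 and -0.10. Aplnr was also lower under prednisolone than under eplerenone plus lisinopril, by -1.51 ± 0.26 (SE, limma adjusted p = 0.0356). The count of falls was 13 without untreated replicate 2, 9 without replicate 1 and 3 without replicate 3. It was 1 to 5 without 1 of the prednisolone arrays, and in a fit of the 2 groups alone it was 2.

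Genes upstream and downstream of the receptors were followed in 4 pathway lists. Their counts of falls under prednisolone against untreated stand beside the 3.17% of all clusters that were lower. Of 12 measured VEGF and angiopoietin pathway genes, 2 fell: Nrp2, a co-receptor for VEGF ligands (-0.59 ± 0.12, limma adjusted p = 0.0176), and Hif1a, the oxygen-sensing transcription factor (-1.38 ± 0.28, limma adjusted p = 0.0179). Hif1a measured 11.91, 13.19 and 13.08 in untreated mice and 11.22 to 11.54 under prednisolone, so untreated replicate 2 was high, not low. Neither call was made without untreated replicate 2, without untreated replicate 3 or without prednisolone replicate 2, and 1 was made without prednisolone replicate 1 or in a fit of the 2 groups alone. The ligands Vegfa (0.14) and Angpt2 (-0.43), chosen after their values were seen, did not pass.

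Of 14 genes around endoglin and BMP signalling, 3 fell. Id1, a direct target of BMP signals, measured 9.04, 8.50 and 8.95 in untreated mice and 7.54, 6.74 and 7.41 under prednisolone, and fell by 1.60 ± 0.29 (SE, limma adjusted p = 0.0122). Acvrl1, which encodes ALK1, the receptor that works with endoglin, fell by 0.63 ± 0.12 (SE, limma adjusted p = 0.0127). Id2 fell by 1.37 ± 0.26 (SE, limma adjusted p = 0.0128). The count was also 3 without untreated replicate 2, and 2 without untreated replicate 3. It was 0 without prednisolone replicate 2, 1 without prednisolone replicate 1 and 1 in a fit of the 2 groups alone. Both inhibitors of differentiation are expressed outside endothelium as well.

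Of 14 Notch and arterial genes, Notch1 alone fell (-0.64 ± 0.10, limma adjusted p = 0.00543), a share near that of all clusters; the count was 2 without untreated replicate 1 or without untreated replicate 2, and 3 with only clusters above the median level. Of 13 venous and activation genes, Vcam1 alone did (-0.68 ± 0.17, limma adjusted p = 0.0359); it encodes an adhesion molecule for leukocytes on inflamed endothelium. That count of 1 moved with the arrays and settings used. It was 5 without untreated replicate 1, 4 with array weights, 3 with only clusters above the median level and 2 with equal array medians. It was 0 without untreated replicate 2, without prednisolone replicate 1 or 2, with quantile normalization, with all clusters tested or in a fit of the 2 groups alone. The list medians were -0.14 for VEGF and angiopoietin, -0.14 for Notch, -0.14 for endoglin and BMP, and -0.44 for venous and activation genes. No gene of these 4 lists passed by limma between untreated and either combination. Yet the venous and activation median was -0.49 for the spironolactone and -0.35 for the eplerenone combination against untreated. The other lists' medians were -0.07 to 0.03 and -0.12 to -0.02. Notch1 measured 7.58 to 7.75 in the combination arrays, below the untreated 7.83 to 8.18. Id1 measured 7.54 to 8.63 there, against 8.50 to 9.04 in untreated.

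**Figure D5:**
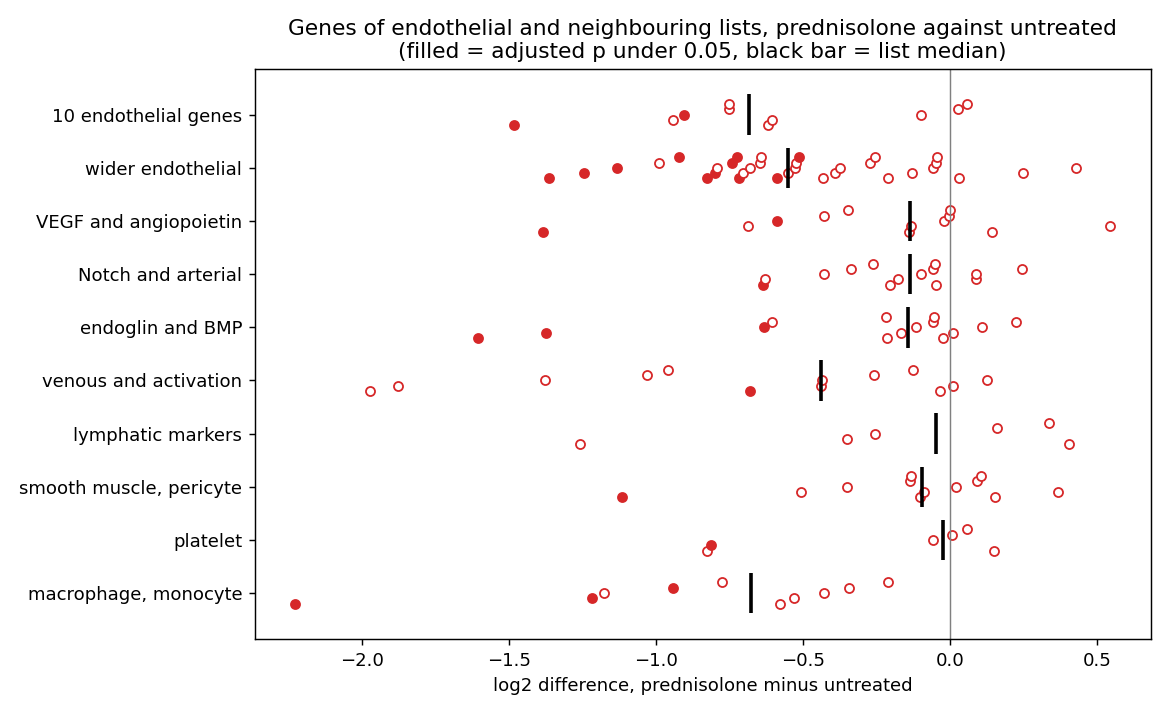
Log2 difference, prednisolone minus untreated, of each gene in the 10-gene set, in 5 related endothelial and pathway lists and in 4 lists of neighbouring cell types; filled points passed an adjusted p of 0.05 and black bars are list medians. The endothelial and macrophage medians lie between -0.7 and -0.5, and the lymphatic, smooth muscle and platelet medians lie near 0.

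Markers of neighbouring cell types were counted in the same way under prednisolone against untreated, where 6.39% of all clusters passed and 3.17% were lower. Of 12 smooth muscle and pericyte markers 1 fell, Rgs5 (-1.12 ± 0.26, limma adjusted p = 0.029), with a list median of -0.09 and mean levels of 8.94 to 8.98 against 8.89 to 9.31 in untreated. Rgs5 was low in untreated replicate 2 (14.11, against 15.22 and 15.06). The list's count was 1 without that mouse and 0 without untreated replicate 1 or 3, without any 1 prednisolone replicate or with the 2 groups alone. Of 6 lymphatic markers 0 passed by limma (1 fell without untreated replicate 1), with 3 of them below 0 and a list median of -0.05. Prox1, the factor that sets lymphatic identity, was at -0.26, and Lyve1 (0.16), Mmrn1 (0.40) and Reln (0.34) were above 0. Of 6 platelet markers Ppbp fell (-0.81 ± 0.19, limma adjusted p = 0.0303), with a list median of -0.02; none did without untreated replicate 2 or 3, without any 1 prednisolone replicate or with the 2 groups alone. Of 10 macrophage and monocyte markers 3 fell, among them the Fc receptor Fcgr1 (-2.23), with a list median of -0.68. Without untreated replicate 2 the macrophage list had 1 fall and a median of -0.49, while the 10 endothelial genes had 5 falls and a median of -0.89. Against that mouse alone the medians were -1.05 and -0.12, so the lists moved in opposite directions with it. The macrophage count was also 1 without prednisolone replicate 1 or 2 and with the 2 groups alone. Of 8 neutrophil markers 1 fell (Retnlg, -2.54), with a list median of -1.48. Without untreated replicate 1 the count was 5 and the median -2.24, and with array weights the count was 4. It was 0 without untreated replicate 2 or 3, without any 1 prednisolone replicate, with all clusters tested or with the 2 groups alone. Of 10 skeletal muscle markers 0 passed by limma, with a median of 0.10. Acta1, Myh4 and Myl1 shared the same difference, 0.0033, with means of 19.92 and 19.91, close to the highest value of the table, 19.93. Tied values this near the top could show little change, so the count says little about muscle content. Of 6 fibroblast markers 2 fell, Col1a1 and Col1a2, and 1 rose, against 1 fall and no rise without untreated replicate 2 or without prednisolone replicate 1 or 2. Of 3 erythroid and 5 adipocyte markers 0 passed by limma, with list medians of -0.08 and 1.19. None of the adipocyte markers was below 0. Their mean level was 7.69 to 9.60 under prednisolone against 7.12 to 7.67 in untreated. The adipocyte median was also above 0 against untreated in the spironolactone (1.57) and eplerenone (0.54) combinations. The part of other cell types in the endothelial differences was not tested.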

How the data were processed

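RNA of 12 quadriceps muscles was hybridised to single-channel Affymetrix arrays. The deposited log2 values were made by the authors with RMA, per the submitters' processing notes, which name Affymetrix Expression Console and Transcriptome Analysis Console. Program versions and the genome build were not given in the sources used here. In each array 1.27% to 1.34% of values lie above 16, the ceiling of a 16-bit scanner, so they were rescaled at a step not described, and a fold is one on the deposited scale. Of 65587 clusters, 30412 had exactly 1 symbol in the platform annotation (2118 had several, 33057 none, and 827 symbols were updated through gene IDs) and were tested. No dim clusters were removed. Detection calls played no part.

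Group means of all 12 arrays were fitted with limma 3.58.1 in R 4.3.3 (eBayes, two-sided, no intensity trend), for 6 pairwise contrasts and an F-test, with Benjamini-Hochberg adjustment over the 30412 clusters. Residual degrees of freedom were 8, prior ones 2.94, and the median SE was 0.13. The number of arrays limits precision: an exact permutation test of 3 against 3 cannot go below 0.1. Tested on simulated data for prednisolone against untreated over 30412 clusters, the fit recovered 79% of log2 changes of 1 and 99% of changes of 2. The changed clusters were drawn at random from all of them. Recovery was not simulated for the 10 genes, whose SEs were 0.12 to 0.32. The labels call the mice biological replicates.

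All 10 genes are named in each comparison. From each pathway list, those past the threshold are named, at most 6 by p; from each marker list, counts, mean levels and some of the 2 with the smallest p. The 8 most alike clusters leave out predicted genes and small RNAs. Members and lists were chosen with earlier results of these data known. Alternatives changed the normalization, the clusters tested, the variance model, the groups fitted and the arrays used.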

Additional observations from a re-analysis of the deposited data

How the results depend on the processing

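The number of the 10 genes past the threshold in prednisolone against untreated was 2. It was 4 with only clusters above the median level and 4 with limma array weights, 1 with all clusters of the table tested and 0 in a fit of the 2 groups alone. It was 1 to 5 with 1 array left out. Fits against untreated replicate 1 alone, and against untreated replicate 2 alone, the last chosen after seeing the data, are read as sizes only. Cdh5 ranged from -1.82 to -0.81 over the 16 alternatives. Among those with more than 1 untreated array, it failed to pass only in the fit of the 2 groups alone (limma adjusted p = 0.0533). The replicate block gave 1. Same-numbered arrays deviated from their group means with r from -0.24 to 0.16, and other-numbered arrays with r from -0.30 to 0.27. The labels do not say whether the numbers pair the mice, and these r cannot settle it. Against the spironolactone combination the count was 0, and 1 with array weights. Against the eplerenone combination it was 0, and 1 with quantile normalization, equal array medians, clusters above the median, array weights or the 2 groups alone. The F-test called 1 gene, and 0 with all clusters, 0 with the replicate block and 0 to 1 with 1 array left out. The smooth muscle and pericyte list's 1 fall was also lost with the replicate block. The wider list's 11 became 2 in a fit of the 2 groups alone and 1 to 13 with 1 array left out. The wider list's median was -0.64 against untreated replicate 1 alone and -0.20 against untreated replicate 2 alone. Its alternatives were chosen after seeing the data.

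Of the values of single genes under these settings, 811 kept their direction and side of the threshold, 14 passed newly, 12 no longer passed and 63 reversed. These counts include the fits against 1 untreated mouse alone, whose side of the threshold is not read as a test. None of the reversed values passed the threshold where each group kept more than 1 array. Against untreated replicate 1 alone, the reversed values were Kdr -0.46 and Tek -0.18 for prednisolone. They were Kdr -0.24 and Emcn -0.21 for the spironolactone combination, and Kdr -0.062, Tek -0.17 and Emcn -0.26 for the eplerenone one. Against untreated replicate 2 alone they were Vwf 0.14 and Emcn 0.067 for prednisolone. For the spironolactone combination they were Cdh5 0.31, Pecam1 0.37, Flt1 0.15, Tek 0.63, Tie1 0.22, Vwf 0.029 and Esam 0.11. For the eplerenone combination they were Cdh5 0.47, Pecam1 0.42, Tie1 0.36, Eng 0.039 and Esam 0.27. Equal array medians turned Tek to 0.038 in spironolactone against untreated and to -0.020 in prednisolone against spironolactone. Array weights turned Emcn to -0.0020 between the combinations, and quantile normalization turned Tek to 0.0085 in prednisolone against eplerenone.

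With 1 array left out, prednisolone against untreated ran from -0.24 to 0.32 for Kdr and -0.29 to 0.25 for Tek. The spironolactone combination against untreated ran from -0.0096 to 0.54 for Kdr, -0.59 to 0.024 for Flt1, -0.33 to 0.20 for Tek and -0.27 to 0.38 for Emcn. The eplerenone combination against untreated ran from -0.54 to 0.0061 for Cdh5, -0.56 to 0.013 for Pecam1, -0.28 to 0.26 for Tek, -0.36 to 0.048 for Tie1 and -0.32 to 0.32 for Emcn. Between the combinations the ranges were -0.33 to 0.0021 for Cdh5, -0.18 to 0.17 for Pecam1, -0.31 to 0.13 for Tek, -0.30 to 0.0029 for Tie1, -0.17 to 0.033 for Eng, -0.045 to 0.10 for Vwf and -0.17 to 0.28 for Emcn. Prednisolone against the spironolactone combination ran from -0.14 to 0.30 for Tek, and against the eplerenone combination from -0.050 to 0.31 for Flt1 and -0.10 to 0.15 for Tek. The causes were not tested. A mean over several clusters of a gene gave no other value, because each gene had 1 cluster. Signal over background was not used here.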
